A study of Mus musculus with 5 samples.

Results

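Lysosomal proteases and the proteins that work with them were followed in single cells sorted as CD3+ T cells from the mouse brain after stroke. The 7 genes were Ctsb, Ctsd and Ctss (cathepsins B, D and S), Cst3 (cystatin C), Grn (progranulin), Psap (prosaposin) and Lamp1, taken by symbol from the 2926 mouse genes of the deposited table. All 7 were measured. The table places them on chromosomes 14 (Ctsb), 7 (Ctsd), 3 (Ctss), 2 (Cst3), 11 (Grn), 10 (Psap) and 8 (Lamp1). Wildtype C57BL/6 mice had received a photothrombotic stroke, in which a dye in the blood is activated by light and blocks cortical vessels. In the trained group (3 samples) the mice ran on wheels from day 2, and in the untrained group (2 samples) they did not. At day 14 the hemisphere on the side of the stroke was taken, and cells stained for CD45 and CD3 were sorted one to a well of 384-well plates for SORT-seq, a plate-based single-cell RNA method. No transgene was used, and every group carried the stroke, so none was uninjured. The labels do not say that each sample is a separate mouse, so a p-value speaks only of how far these samples vary.

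Cathepsins cut proteins inside the acidic lysosome. Ctsb and Ctss are cysteine proteases, Ctsd is an aspartic protease, and Ctss also trims the invariant chain of MHC class II. Cst3 is a secreted inhibitor of cysteine cathepsins, Grn and Psap are precursors that travel to the lysosome together and are cut there into granulins and saposins, and Lamp1 is a glycoprotein of the lysosomal membrane that reaches the surface when cytotoxic T cells release their granules. In the brain these genes are best known from microglia and macrophages, and T cells express them as well.

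The promoters of Ctsd and Lamp1 are shown because they held CACGTG, and those of Ctss, Cst3, Grn and Psap did not. CACGTG is the E-box core of the CLEAR element to which TFEB, a regulator of lysosomal genes, binds. Windows from 250 bases before to 50 bases after the start came from RefSeq (GRCm38.p6), and 6 of the 7 genes had one, with 2 windows for Psap and none listed for Ctsb. The motif reads the same on both strands. It occurred in 7.15% of 32851 mouse promoter windows. Capitals mark it in the stretches below, both read 5′ to 3′ on the gene's strand.

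Ctsd (chr7:142387908-142388077, minus strand): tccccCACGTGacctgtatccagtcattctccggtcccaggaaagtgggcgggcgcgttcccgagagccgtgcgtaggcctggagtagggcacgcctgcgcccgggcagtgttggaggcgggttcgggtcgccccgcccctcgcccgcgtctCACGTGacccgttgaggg
Lamp1 (chr8:13159081-13159160, plus strand): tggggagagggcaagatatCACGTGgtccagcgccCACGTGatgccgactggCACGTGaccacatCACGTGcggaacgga

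Lamp1 held 4 copies, with first bases at -61, -45, -28 and -15 from the start, a number reached by 8 of the 32851 windows (0.0244%). Ctsd held 2, at -245 and -98, and 0.594% of windows held 2 or more. The longer palindrome TCACGTGA, which contains the core, was found in 0.974% of windows. Among the 6 genes with a window it occurred once, in Ctsd at -99. The windows of Ctss, Cst3, Grn and Psap held neither run of letters. A match is a run of letters, and no binding was measured.

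The table holds signed scores, from -2.12 to 3.74 with 72.7% of values below 0, and no counts. The depth of each sample is therefore unknown. Scores may have been scaled or integrated across samples. Differences below are therefore differences of scores and not of expression, and levels are not compared between genes. Cells with a mean score of Cd3e, Cd3d, Cd3g, Cd2, Lck, Cd247 and Thy1 above 0 were taken as T cells (345 of 692), and the 347 at or below 0 as other cells. This is a range of a score, and 101 cells lay within 0.1 of its edge, 53 of them T cells. Mean scores of these markers over all cells lay near 0, from -0.034 for Cd3g to 0.099 for Thy1. An even split is thus near what a cut at 0 gives, and the other cells are not shown to lack CD3. Untrained samples 1 and 2 gave 78 and 70 T cells and 66 and 120 other cells, and trained samples 1, 2 and 3 gave 37, 70 and 90 T cells and 29, 54 and 78 other cells. Well names repeated between samples (221 of 331 occurred in more than 1 sample), as wells of different plates share their names, and this shows no shared cell. Untrained sample 2 stood apart. In it alone the score of every one of the 7 genes stopped at the same highest value, 2.52, reached by 12 cells for Lamp1 and up to 39 cells for Cst3, whereas in each other sample 1 cell held the highest value. The scores of the 7 genes in this sample were thus cut at an upper limit that the other samples did not show. Ctsd reached 2.61 in trained sample 2 and Cst3 reached 2.69 in trained sample 3. Scores of untrained sample 2 may therefore not be on the scale of the others, which was not tested. Scores at this stop cannot be ranked, and the means, medians and correlations that include them are bounded by it. The comparisons of T cells with other cells and of training are given with and without untrained sample 2, and mean correlations only with it.

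Among T cells the 7 genes had one order of samples at its low end. The mean Ctsb score was 0.110 in untrained sample 1, -0.406 in untrained sample 2 and -0.093, -0.052 and -0.0038 in trained samples 1, 2 and 3. For Ctsd the untrained means were 0.036 and -0.497, and the trained means -0.153, -0.028 and -0.048. For Ctss they were 0.086 and -0.498 against -0.130, -0.118 and 0.009. In all of these cathepsins untrained sample 2 was lowest and untrained sample 1 highest, so the trained samples lay between the untrained ones. The inhibitor Cst3 had untrained means of -0.011 and -0.650 and trained means of -0.178, -0.196 and -0.014. Grn had -0.095 and -0.493 against -0.269, -0.221 and -0.115, and its partner Psap had -0.071 and -0.383 against -0.258, -0.158 and -0.187. Lamp1 had 0.025 and -0.269 against -0.135, -0.139 and -0.057. The same 2 untrained samples were the lowest and the highest for these 4 genes, and the groups overlapped for all 7, whereas 14.8% of all genes had groups that did not.

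In the other cells the order was the reverse for untrained sample 2. Its mean Ctsb score was 0.309, against -0.117 in untrained sample 1 and -0.053, -0.200 and -0.191 in trained samples 1, 2 and 3. Ctsd stood at 0.369 there, against -0.130 in untrained sample 1 and -0.158, -0.258 and -0.297 in the trained samples. Ctss stood at 0.425, against -0.106 and -0.005, -0.170 and -0.147 in the same order. Untrained sample 2 was the highest of the 5 for each cathepsin and the only sample with a positive mean. For Cst3 it stood at 0.474, against -0.124 in untrained sample 1 and -0.047, -0.087 and -0.140 in the trained samples. Grn stood at 0.318, against -0.108 and -0.102, -0.201 and -0.211, and Psap at 0.215, against -0.273 and -0.223, -0.301 and -0.282. Lamp1 stood at 0.160, against -0.159 and -0.087, -0.238 and -0.248. Untrained sample 2 was again the highest for these 4 and the only one above 0. Over all cells the mean of the 7 genes was -0.060 and 0.037 in untrained samples 1 and 2. It was -0.140, -0.164 and -0.132 in trained samples 1, 2 and 3. How far the low T cell scores of untrained sample 2 follow from the high scores of its other cells was not tested. Its T cell markers also lay further apart, at a mean of 0.666 over T cells and -0.392 over other cells. Elsewhere these means were 0.288 to 0.380 and -0.354 to -0.240.

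**Figure D1:**
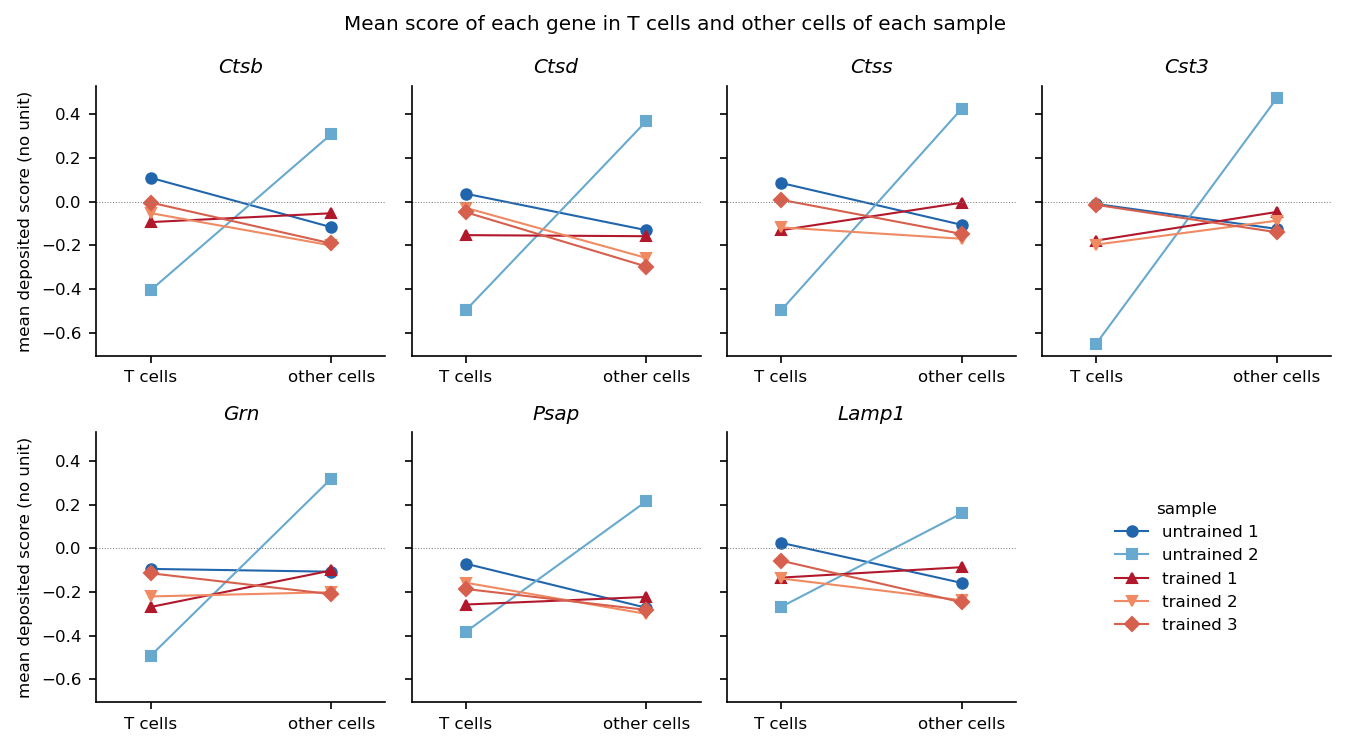
Mean deposited score (vertical axis, no unit) of each of the 7 genes in T cells and in the other cells; each line joins the 2 means of 1 sample, blue for untrained and red for trained. Untrained sample 2 is lowest among T cells and highest among other cells for all 7 genes, with Cst3 at -0.650 and 0.474.

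T cells were then compared with the other cells of the same samples, with sample as a block. In the fit of all 5 samples and all cells the 7 genes did not share the shift seen across the table. The mean of the 7 was higher in the T cells of 3 samples, and its difference in untrained sample 2 was -0.780. In limma, 2592 of 2919 genes (88.8%) differed at an adjusted p under 0.05, 83.2% higher and 5.55% lower in T cells, and 0 of the 7 genes did. At an unadjusted p under 0.05 the number was also 0 of 7. The median difference, T cells minus other cells, was -0.043 for the 7 genes and 0.203 for all genes, of which 91.6% were higher in T cells. Spike-in RNA, a control RNA added to the wells, had a mean score of -0.002 over T cells and 0.081 over the other cells, and its mean was higher in the other cells of every sample. Its part in the result was not tested.

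Ctsb differed by -0.039 ± 0.115 (SE, n = 5 samples, limma adjusted p = 0.755). Within the samples its difference was 0.226 and -0.714 for the untrained and -0.040, 0.148 and 0.187 for the trained. Ctsd differed by -0.043 ± 0.137 (limma adjusted p = 0.769), with 0.167 and -0.866 for the untrained and 0.0049, 0.229 and 0.249 for the trained samples. The 2 proteases were thus higher in the T cells of 3 and 4 of 5 samples, and far lower in those of untrained sample 2. Ctss differed by -0.130 ± 0.135 (limma adjusted p = 0.373), and Cst3, which inhibits it, by -0.225 ± 0.150 (limma adjusted p = 0.178). Grn differed by -0.178 ± 0.109 (limma adjusted p = 0.144) and Psap by -0.038 ± 0.097 (limma adjusted p = 0.713). Lamp1 differed by -0.00054 ± 0.079 (limma adjusted p = 0.995). In untrained sample 2 the difference ran from -0.428 for Lamp1 to -1.12 for Cst3, while in untrained sample 1 all 7 genes were higher in T cells, by 0.013 for Grn to 0.226 for Ctsb.

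Without untrained sample 2, 4 of the 7 genes passed the threshold, where 92.1% of genes did. Ctsb was then higher in T cells by 0.130 (limma adjusted p = 0.012), Ctsd by 0.162 (0.0027), Psap by 0.101 (0.0292) and Lamp1 by 0.106 (0.0281). Ctss stood at 0.069, Cst3 at -0.00028 and Grn at -0.020, and none of the 3 passed. The share of the 7 genes called lay below that of the table in both fits.

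Some of the other cells had high scores of these genes together, most of them in untrained sample 2. Of the 692 cells, 48 scored above 1 for 4 or more of the 7 genes, and 19 scored above 1 for all 7. Of the 48, 47 were other cells and 1 was a T cell, from trained sample 1 and inside the CD8 gate described below. Untrained sample 2 held 39 of them, all other cells, which is 32.5% of its 120 other cells (95% Wilson interval 24.8 to 41.3, counting error only). The other cells of trained samples 1, 2 and 3 held 3, 4 and 1, or 10.3% (3.58 to 26.4), 7.41% (2.92 to 17.6) and 1.28% (0.227 to 6.91). Untrained sample 1 held 0 of 66, which allows up to 4.55% by counting error only. By this cut 1 of the untrained samples held most of these cells and the other none. The spread of scores differed between these 2 samples. The SD over all cells ran from 0.355 (Grn) to 0.521 (Ctsb) in untrained sample 1. In untrained sample 2 it ran from 0.979 (Lamp1) to 1.32 (Cst3). A score of 1 may thus not mean the same in each sample, which was not tested. Of the 19 cells with all 7 genes above 1, untrained sample 2 held 15, trained sample 1 held 3 and trained sample 2 held 1.

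**Figure D2:**
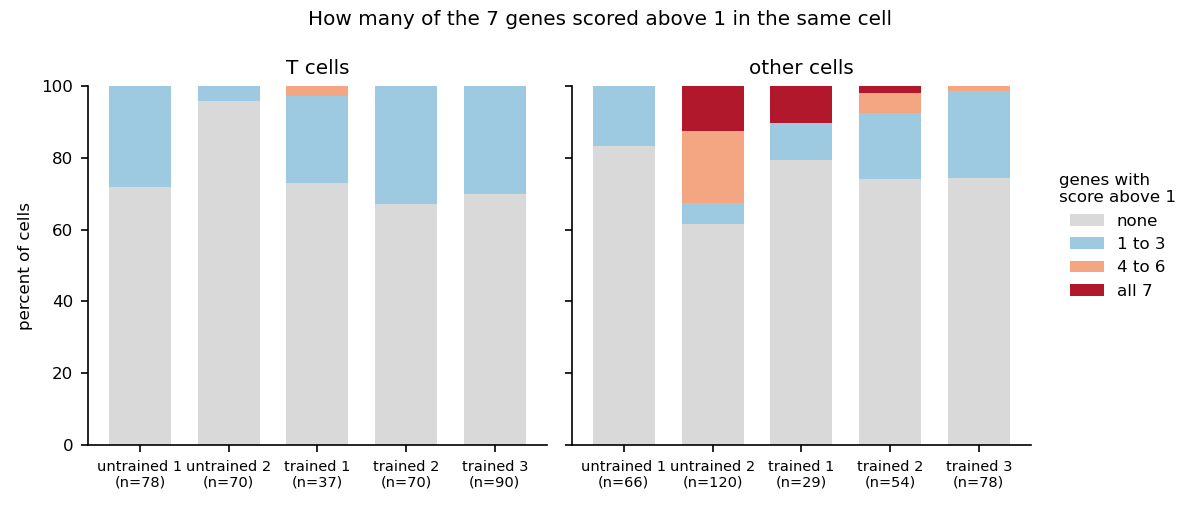
Share of the T cells (left) and other cells (right) of each sample, in percent, by how many of the 7 genes scored above 1 in the cell; n is the number of cells. The bar of the other cells of untrained sample 2 holds the largest share with 4 or more genes, 32.5%.

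These 48 cells also scored high for the measured genes of the microglia, macrophage and monocyte list. That list had 4 of its 20 genes in the table: C1qb (a chain of complement C1q), Tyrobp and Fcer1g (signalling adaptors of innate receptors) and Apoe (a lipid carrier). Their mean was above 0.5 in 46 of the 48 cells and in 22 of the other 644. Median scores in the 48 cells were 2.52 for C1qb, 1.72 for Tyrobp, 1.54 for Fcer1g and 2.52 for Apoe, with 26 of the 39 cells of untrained sample 2 at its stop of 2.52 for C1qb and 27 for Apoe. The median of Cd3e, a subunit of the CD3 complex, was -0.463. In the 644 remaining cells the median was -0.206 for C1qb and -0.029 for Cd3e. Summed into a mean, the 4 genes ranged over samples from -0.482 to -0.047 in T cells and from -0.233 to 0.292 in other cells, with untrained sample 2 at both ends, lowest in T cells and highest in the others. No measured gene of the list had a score that can be read as 0 transcripts. Of the remaining lists, 1 of 4 oligodendrocyte genes was in the table. This gene, Mbp, had a mean score of 0.258 over T cells and -0.222 over other cells, and was higher in the T cells of 5 of 5 samples, the direction most genes took. Its part in the comparison was not tested. None of the genes of the dendritic, B, NK, neutrophil, astrocyte, neuron, endothelial and erythroid lists was found in the table. These cell types could not be looked for with them.

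Without the 68 cells whose mean of C1qb, Tyrobp, Fcer1g and Apoe was above 0.5 (55 other cells, 41 of them from untrained sample 2, and 13 T cells), all 7 genes were higher in T cells. Ctsb was then higher by 0.189, Ctsd by 0.213, Ctss by 0.140, Psap by 0.185 and Lamp1 by 0.185, with limma adjusted p from 0.00028 for Lamp1 to 0.0034 for Ctss. Cst3 (0.062, adjusted p = 0.151) and Grn (0.041, adjusted p = 0.337) did not pass. These 5 of 7 stand beside 94.5% of genes called in that fit and a median difference of 0.232 over all genes. Leaving out instead the 48 cells with 4 or more of the 7 genes above 1, which selects on the genes themselves and was tried after seeing the data, also gave 5 of 7 (94.1% of genes called). In the fit without the 68 cells, Cst3 and Grn were lower in the T cells of untrained sample 2, each at -0.094. C1qb, Tyrobp and Apoe were the genes closest to the mean of the 7 over all cells, as given below, so leaving out these cells also removes high scores of the 7.

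Scores above 1 occurred in T cells too, for 1 to 3 of the 7 genes in 84 T cells, beside 50 of the other cells. A score above 1 for at least 1 of the 7 genes was found in 24.6% of T cells and 28.0% of other cells. Per sample the share of T cells was 28.2% and 4.29% among untrained and 27.0%, 32.9% and 30.0% among trained samples. The share of other cells was 16.7% and 38.3% among untrained and 20.7%, 25.9% and 25.6% among trained samples. It was lower than that of T cells except in untrained sample 2. Among T cells untrained sample 2 was again the low one. The mean of the 7 genes did not exceed 0.846 in any T cell, whereas it reached 2.52 in an other cell of untrained sample 2.

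How closely the 7 genes followed each other across the cells of a sample also differed by class. Over the 21 pairs the median Pearson r among other cells was 0.411 and 0.807 in untrained samples 1 and 2 (66 and 120 cells) and 0.788, 0.600 and 0.424 in trained samples 1, 2 and 3 (29, 54 and 78 cells). Among T cells it was 0.301 and -0.039 in the untrained samples (78 and 70 cells) and 0.213, 0.048 and 0.156 in the trained (37, 70 and 90 cells). Every sample had the higher median in its other cells. Averaged over samples, Ctss with its inhibitor Cst3 (r = 0.685) and Ctsd with Grn (0.678) were the closest pairs among other cells. Among T cells the closest were Ctss with Cst3 (0.286) and Ctsb with Cst3 (0.282). The highest value of Ctss with Cst3 among other cells, 0.947, came from untrained sample 2. The order of pairs without that sample was not computed. Psap with Lamp1 was the loosest pair among T cells (0.034). Each r was taken over the cells of 1 sample, so these values describe the samples.

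The genes most like the mean of the 7 were found by Pearson r within each sample, averaged over the 5. Over all cells C1qb came first (mean r = 0.729, 0.580 to 0.948 over samples), followed by Tyrobp (0.692), Apoe (0.658), Itm2b (0.651), Serinc3 (0.610), Ctsa (0.609), Egr1 (0.596), Dusp6 (0.591), Rgs2 (0.589) and Rhob (0.568). Ctsa is a lysosomal carboxypeptidase. Egr1, Dusp6, Rgs2 and Rhob are genes that cells switch on soon after stimulation. The median over all other genes was 0.123. Within T cells C1qb again came first, at 0.462 (0.312 to 0.669), followed by Apoe (0.370), Itm2c (0.347), Rgs2 (0.339), Cd9 (0.311), Tyrobp (0.303), Btg2 (0.292), Ftl1 (0.285), Dusp6 (0.274) and Lgals3bp (0.258), beside a median of 0.013. C1qb, Apoe, Tyrobp, Rgs2 and Dusp6 stood on both lists. The values within T cells were the weaker ones throughout, and those of Rgs2 and Dusp6 in untrained sample 2 were -0.0021 and -0.018.

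**Figure D3:**
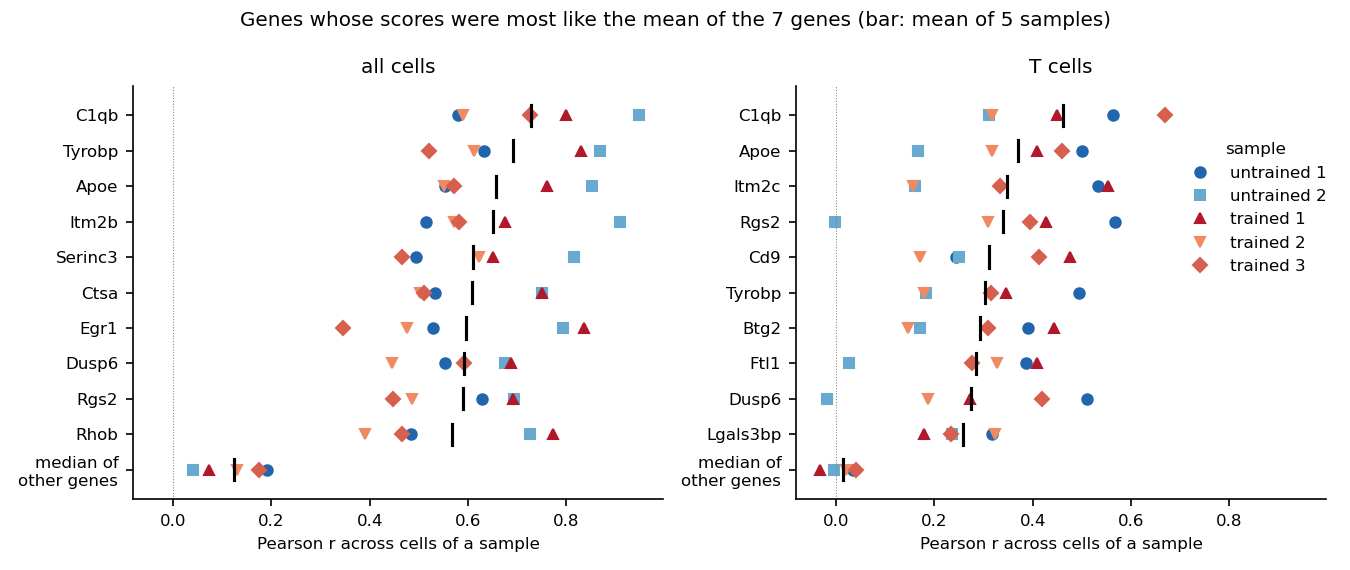
Pearson r across the cells of each sample (horizontal axis) between a gene and the mean of the 7 genes, for the 10 genes with the highest mean over samples, over all cells and over T cells; symbols are samples and the black bar is their mean. C1qb leads both panels, at a mean of 0.729 and 0.462, beside medians of 0.123 and 0.013 over the other genes.

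Coreceptor gates divided the T cells. CD8-gated T cells (108) scored above 0 for the mean of Cd8a and Cd8b1 and no higher than 0 for Cd4, and CD4-gated T cells (93) scored above 0 for Cd4 and no higher than 0 for the other mean. Of these, 28 and 22 had a gate score of at most 0.25. Untrained samples 1 and 2 gave 22 and 18 CD8-gated and 23 and 18 CD4-gated T cells, and trained samples 1, 2 and 3 gave 13, 26 and 29 and 11, 25 and 16. Cathepsin B was the gene of the 7 that set the gates apart most. Its mean score in CD4-gated T cells was 0.257 and -0.232 in untrained samples 1 and 2 and 0.119, 0.018 and 0.236 in trained samples 1, 2 and 3. In CD8-gated T cells it was -0.113 and -0.502 for the untrained and -0.363, -0.055 and -0.206 for the trained samples. Each sample was lower in its CD8-gated T cells, although the 2 sets of means overlapped because both gates of untrained sample 2 lay low.

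Ctsb was lower in CD8-gated than in CD4-gated T cells by -0.327 ± 0.075 (SE), in 5 of 5 samples, with a limma adjusted p of 0.0705 that did not pass the threshold. In this comparison 11 of 2923 genes (0.376%) passed in limma, all higher in CD8-gated T cells, and 0 of the 7 did. The unadjusted p of Ctsb was 0.00076, and 14.3% of all genes had an unadjusted p under 0.05, as 1 of the 7 did. Over the alternatives the limma adjusted p of Ctsb ranged from 0.043, with the gates drawn in all sorted cells (difference -0.397), to 0.330, without trained sample 3. With the gates drawn in all sorted cells 0.171% of genes passed, and Ctsb was among them. That fit also takes in the other cells that lie within the gates, so it does not compare T cells alone. Without a sample block its adjusted p was 0.136. A score of Ctsb above 0 was found in 60.9% and 38.9% of the CD4-gated T cells of untrained samples 1 and 2 and in 36.4%, 44.0% and 56.2% of those of trained samples 1, 2 and 3. In CD8-gated T cells the untrained shares were 36.4% and 5.56% and the trained shares 15.4%, 34.6% and 17.2%. The share was higher in the CD4 gate of every sample.

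Genes that scored with the 7 were looked at beside this difference. The mean of C1qb was higher in the CD4-gated T cells of every sample, at 0.080 and -0.499 (untrained) and 0.223, 0.016 and 0.106 (trained), against 0.050 and -0.586 and -0.230, -0.111 and -0.041 in CD8-gated T cells. Apoe was also higher in the CD4 gate of all 5 samples, Tyrobp in 3 and Fcer1g in 1. Mbp was lower in the CD4 gate of all 5, at 0.144 over CD4-gated and 0.282 over CD8-gated T cells. Without the cells whose mean of C1qb, Tyrobp, Fcer1g and Apoe was above 0.5 (4 CD8-gated and 5 CD4-gated T cells) the Ctsb difference was -0.295 (limma adjusted p = 0.0762).

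The remaining genes differed less between the gates. Grn stood at -0.119 ± 0.070 (limma adjusted p = 0.470) and Lamp1 at -0.133 ± 0.067 (0.397), both lower in the CD8-gated T cells of 5 of 5 samples. Cst3 stood at -0.131 ± 0.075 (limma adjusted p = 0.454) and was lower in 4 of 5. Ctsd (0.0081 ± 0.082), Ctss (-0.030 ± 0.088) and Psap (-0.056 ± 0.085) were higher in some samples and lower in others, with limma adjusted p of 0.984, 0.909 and 0.808. Leaving out a single sample changed the sign of each of these 3, and other alternatives, given below, changed that of Ctsd and Ctss. Ctsd moved to -0.070 without trained sample 2, and Ctss to 0.055 and Psap to 0.010 without trained sample 1. The median over the 7 genes was -0.119, beside -0.014 over all genes.

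**Figure D4:**
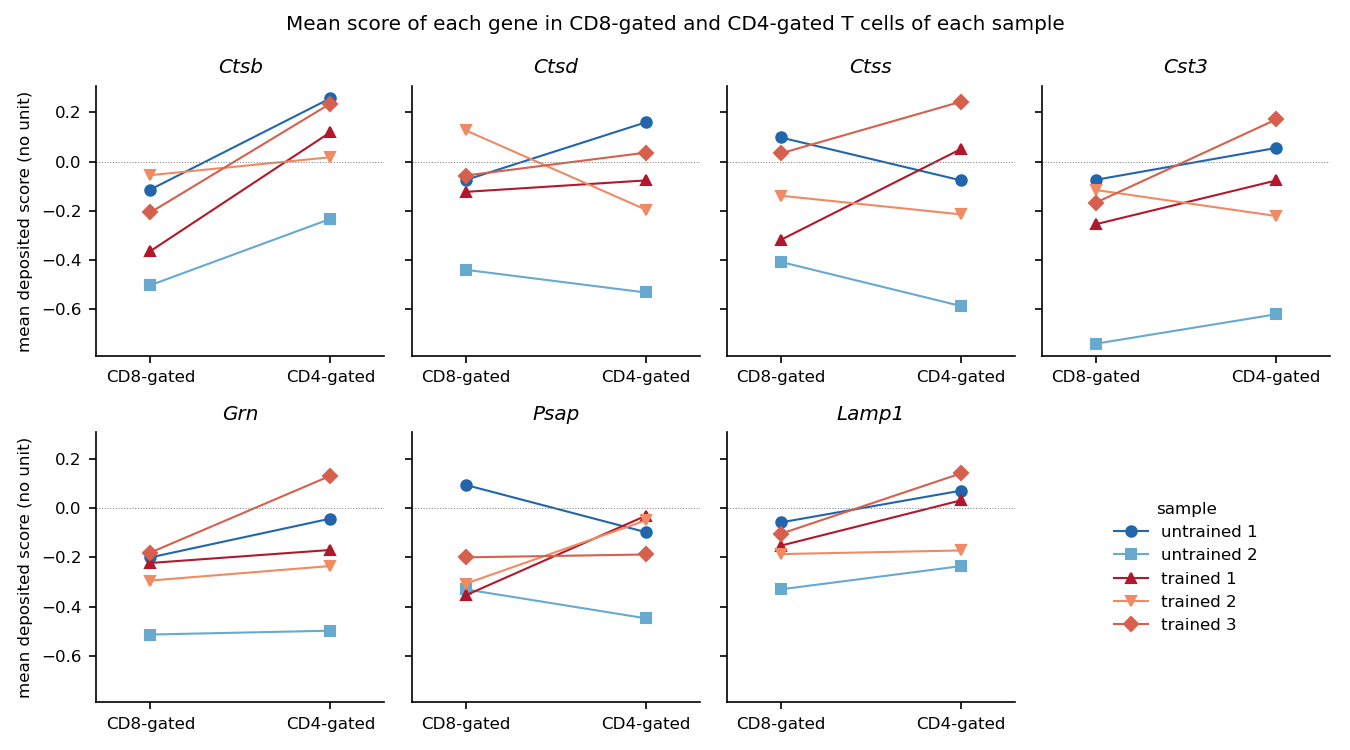
Mean deposited score (vertical axis, no unit) of each of the 7 genes in CD8-gated and CD4-gated T cells; each line joins the 2 means of 1 sample. For Ctsb all 5 lines rise towards the CD4 gate, by 0.073 to 0.483 in size, and the lines of Ctsd, Ctss and Psap cross.

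Other lysosomal genes, a list of 75 of which 31 were in the table, gave a frame for these values. Between T cells and other cells 17 of the 31 were higher in T cells and 1 was lower in limma at an adjusted p under 0.05, with a median of 0.105, beside 83.2% of all genes higher, 5.55% lower and a median of 0.203. The list thus had a smaller share of calls than the table. The highest differences were those of Ctsw, a cathepsin of cytotoxic lymphocytes, at 0.568 ± 0.076, and Cd164, a lysosomal sialomucin, at 0.420 ± 0.041. The other genes that were higher included the inhibitors Cst7 (cystatin F, 0.320 ± 0.031) and Cstb (cystatin B, 0.245 ± 0.035), the protease Ctso, the membrane protein Laptm5, the sorting receptors M6pr and Igf2r, the thioesterase Ppt1, the cofactor Gm2a and 7 genes of the proton pump that acidifies the lysosome (Atp6v0d1, Atp6v0e, Atp6v1a, Atp6v1d, Atp6v1f, Atp6v1h and Atp6ap1). Fuca1, a lysosomal fucosidase, was the one that was lower, at -0.189 ± 0.035 (limma adjusted p = 0.00061). The 3 genes with the smallest p were Cst7, Cd164 and Atp6v0e (0.309 ± 0.034). Of these 18 calls 6 were lost under at least 1 alternative. With medians over cells Ctso, Igf2r, Atp6v0d1, Atp6v1h and Atp6ap1 no longer passed, and with a T cell marker mean above 0.25 Ctso, Igf2r, Atp6v1h and Atp6ap1 did not. Gm2a did not pass without untrained sample 1 or 2 or trained sample 2 or 3, Atp6ap1 without untrained sample 1 or any trained sample, and Atp6v1h without any one trained sample (limma adjusted p of 0.055 to 0.111 in these fits). In untrained sample 2 the median difference over the 31 was -0.022, against 0.108 to 0.179 in the others, and without that sample 26 of the 31 passed, 25 of them higher, where 92.1% of genes did. Without the 68 cells high for C1qb, Tyrobp, Fcer1g and Apoe, 29 of the 31 passed, where 94.5% of genes did.

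Between the coreceptor gates 1 of the 31 passed. Ctsw was higher in CD8-gated T cells by 0.502 ± 0.073 (limma adjusted p = 0.0091), opposite in sign to Ctsb. Its adjusted p was 0.0565 without trained sample 2, 0.133 without trained sample 3 and 0.312 with medians over cells. Cst7, the inhibitor that resides in cytotoxic granules, stood at 0.342 ± 0.079 (limma adjusted p = 0.0705) and Cd164 at 0.240 ± 0.079 (0.188). The median over the 31 was -0.042.

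Training was compared first within T cells. In limma 0 of 2926 genes (0.0%) differed between trained and untrained T cells at an adjusted p under 0.05, with 50 at an unadjusted p under 0.05 and none of the 7 among either. The trained mean was the higher one for all 7 genes, beside 39.4% of all genes. Ctsb had a trained mean of -0.050 ± 0.045 (SD, n = 3) and an untrained mean of -0.148 ± 0.364 (SD, n = 2), a difference of 0.098. Cst3 had -0.130 ± 0.1002 against -0.330 ± 0.452 (SD, n = 3 and 2), the largest difference of the 7 at 0.201 ± 0.158 (SE, limma adjusted p = 0.998). The differences were 0.154 for Ctsd, 0.126 for Ctss, 0.092 for Grn, 0.026 for Psap and 0.012 for Lamp1, with limma adjusted p of 0.998 to 0.999. The untrained samples lay on either side of the trained ones in all 7 genes, so the untrained spread exceeded every difference.

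Which untrained sample was used decided both the sign and the call. Without untrained sample 2 all 7 genes were lower in trained T cells, by -0.107 for Grn to -0.166 for Ctss, and 0 of 2926 genes passed. Without untrained sample 1 all 7 were higher in trained T cells, and 5 of them passed, where 4.96% of genes did. These were Ctsb (0.356), Ctsd (0.420), Ctss (0.418), Cst3 (0.520) and Grn (0.291), with limma adjusted p of 0.0135 to 0.0357. The single remaining untrained sample is then taken to vary as the trained ones do.

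The share of T cells with a score above 0 was compared as well. Cst3 was above 0 in 32.1% ± 8.74 of trained and 22.5% ± 29.8 of untrained T cells (SD, n = 3 and 2 samples), and Lamp1 in 25.3% ± 4.28 and 33.9% ± 13.7. These were the widest gaps, of 9.62 and -8.64 percentage points. Two-sided exact permutation over the 10 splits of samples gave p of 0.5 to 1.0 for the 7 genes and an adjusted p of 1.0 for each, and the smallest p it can give is 0.1.

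In the other cells the trained mean was the lower one for all 7 genes, and for 2241 of the 2926 genes of the table. Again 0 of 2926 genes were called (0.0%). At an unadjusted p under 0.05 there were 386 genes (13.2%), and 3 of the 7. Ctsd differed most, with a trained mean of -0.238 ± 0.072 (SD, n = 3) and an untrained mean of 0.119 ± 0.353 (SD, n = 2). Its difference was -0.357 ± 0.118 (SE, limma adjusted p = 0.323), and it was the one gene of the 7 whose groups did not overlap, beside 32.7% of all genes. Grn differed by -0.277 and Ctsb by -0.244 (limma adjusted p = 0.334 and 0.372). Ctss, Cst3, Psap and Lamp1 differed by -0.267, -0.266, -0.240 and -0.191, with limma adjusted p of 0.377 to 0.409. Without the 68 cells high for C1qb, Tyrobp, Fcer1g and Apoe the differences ran from -0.044 for Grn to 0.089 for Cst3, and 5 of the 7 were above 0. Without untrained sample 2 they ran from -0.107 for Ctsd to 0.033 for Cst3. Without untrained sample 1, 6 of the 7 passed (0.308% of genes did), from -0.457 for Ctsb to -0.607 for Ctsd, with Lamp1 at -0.350.

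**Figure D5:**
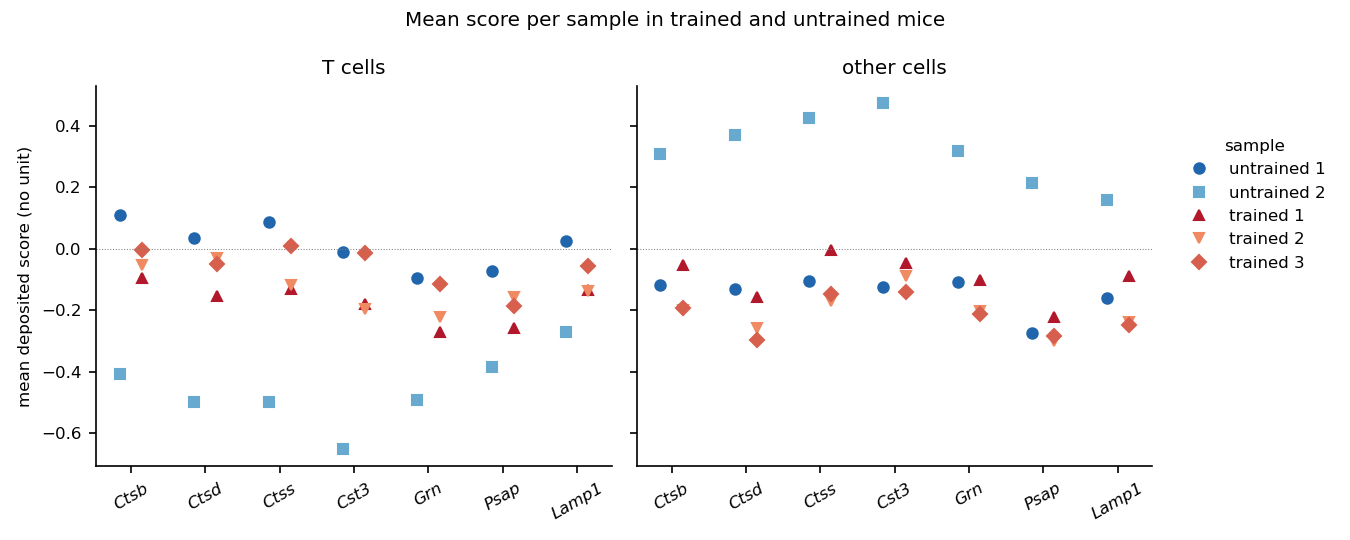
Mean deposited score (vertical axis, no unit) of the 7 genes in T cells (left) and other cells (right); each symbol is 1 sample, blue for untrained and red for trained. The trained samples lie between the 2 untrained ones in T cells for all 7 genes, and in the other cells untrained sample 2 lies alone above 0.

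Training was also compared within the coreceptor gates. In CD8-gated T cells 0 of 2926 genes passed in limma (0.0%, 137 at an unadjusted p under 0.05), and the 7 genes differed by -0.169 to 0.239, trained minus untrained. In CD4-gated T cells 0 passed (0.0%, 73 at an unadjusted p under 0.05), and the 7 differed by 0.082 to 0.358. The median over the 7 was 0.099 and 0.179 in these gates, beside 0.0049 and -0.024 over all genes. Without untrained sample 1, 2 of the 7 passed in CD8-gated T cells, where 5.78% of genes did, and 0 in CD4-gated T cells. Without untrained sample 2, 5 of the 7 changed sign in each gate.

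The difference between the training effects was tested as an interaction. Between T cells and other cells 0 of 2919 genes passed in limma (0.0%, 73 at an unadjusted p under 0.05). The training difference was higher in T cells for all 7 genes, by 0.203 to 0.511, with limma adjusted p of 0.989. It was higher for 57.5% of all genes. All 7 passed without untrained sample 1, where 3.12% of genes did, and all 7 changed sign without untrained sample 2. Between CD8-gated and CD4-gated T cells 0 of 2923 genes passed (0.0%). At an unadjusted p under 0.05 there were 135 genes (4.62%) and 2 of the 7, and the 7 ranged from -0.352 to 0.132.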

How the data were processed

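Cells were sorted and sequenced by SORT-seq in 5 samples (2 untrained, 3 trained), and the number ending each cell name gave its sample, per the labels. The authors deposited 1 table of signed scores for 2926 mouse genes, 41 spike-ins and 692 cells. Cell Ranger is named in the submitters' processing notes, with no version. The sources used here do not state the genome build, the normalisation or any integration. A second table matched the first 384 columns within 5.0e-10 and was not used.

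Scores were averaged per gene, sample and class (at least 3 cells) and fitted with limma 3.58.1 (R 4.3.3). P-values were adjusted by Benjamini-Hochberg across every gene tested, at a two-sided threshold of 0.05. Sample was a block in comparisons of classes. T cell markers, or Cd4, Cd8a and Cd8b1, were left out of the fits of the classes they made. The scripts were also run on simulated data in which each gene had the same spread in all samples and no upper limit. That run therefore says nothing of a sample like untrained sample 2. Shares were compared by exact permutation. Python 3.11.15, pandas 2.3.3, numpy 2.4.6 and scipy 1.17.1 were used. Named genes were the 7, other lysosomal genes past the threshold or with the 3 smallest p in a class comparison, and the 10 genes most correlated with the mean of the 7. The 7 genes and all lists were chosen with earlier results of these data known. Alternatives were another scale, summary, T cell rule, gate or weight, leaving out samples or cells, and no block. Replicate numbers follow accession order and pair no samples, and doublets were not called, since the scores hold no counts.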

Additional observations from a re-analysis of the deposited data

How the results depend on the processing

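Each comparison was refitted under the alternatives. Of 84 refits of the 7 genes between T cells and other cells 54 kept direction and call and 30 changed sign; between the gates 81 of 91 kept both, 9 changed sign and 1 was newly called; for training 54 of 70 in T cells and 55 of 70 in other cells kept both. For T cells against other cells the differences divided by the SD per sample were 0.053 for Ctsb, 0.111 for Ctsd, 0.047 for Psap and 0.094 for Lamp1. With medians over cells 1669 genes passed, and Ctsb stood at 0.076, Ctsd at 0.178, Ctss at 0.060, Psap at 0.061, Lamp1 at 0.074 and Gm2a at -0.035. Lamp1 stood at 0.023 with a T cell marker mean above 0.25. Without cells high for the 4 measured myeloid markers Ctsb stood at 0.189, Ctsd at 0.213, Ctss at 0.140, Cst3 at 0.062, Grn at 0.041, Psap at 0.185 and Lamp1 at 0.185. Without cells with 4 or more of the 7 genes above 1, an alternative chosen after seeing the data that leaves cells out by the genes themselves, they stood at 0.203, 0.196, 0.124, 0.046, 0.033, 0.157 and 0.193 in the same order. With 1 sample left out Ctsb ranged from -0.105 to 0.130, Ctsd from -0.116 to 0.162, Ctss from -0.210 to 0.069, Psap from -0.098 to 0.101 and Lamp1 from -0.048 to 0.106. Without a sample block 2660 genes and 0 of the 7 passed.

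Between the gates, where 11 genes passed, 24 passed with scores divided by their SD, 0 with medians over cells (limma, 0 of the 7), 35 with a T cell marker mean above 0.25, 39 with samples weighted by cells, 24 without the cells high for myeloid markers, 6 with the gate at 0.25, 5 with gates in all sorted cells, 21 with no replicate block and 0 to 16 with 1 sample left out. Ctsd was -0.026 with scores divided by their SD, -0.010 without the cells high for myeloid markers and -0.139 with gates in all sorted cells, and Ctss was 0.0035 with weights. With 1 sample left out Ctsd ranged from -0.070 to 0.069, Ctss from -0.082 to 0.055 and Psap from -0.118 to 0.010.

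For training in T cells 0 to 145 genes passed with 1 sample left out, and Ctsb ranged from -0.159 to 0.356, Ctsd from -0.113 to 0.420, Ctss from -0.166 to 0.418, Cst3 from -0.119 to 0.520, Grn from -0.107 to 0.291, Psap from -0.130 to 0.182 and Lamp1 from -0.135 to 0.159. Psap was -0.099 and Lamp1 -0.082 with scores divided by their SD, and Grn was -0.017 with medians. In other cells 0 to 12 genes passed with 1 sample left out, with Cst3 from -0.565 to 0.033 and Psap from -0.484 to 0.0040. Cst3 was 0.018 and Lamp1 0.020 with medians, and without the cells high for myeloid markers Ctsb was 0.042, Ctss 0.082, Cst3 0.089, Psap 0.0195 and Lamp1 0.0188. With 1 sample left out 0 to 169 genes passed in CD8-gated and 0 to 101 in CD4-gated T cells (8 with medians), 0 to 91 for the interaction of T cells with other cells and 0 to 161 for that of the gates. The share of T cells above 0 differed with 1 sample left out by -12.8 to 13.2 points for Ctsb, -9.11 to 23.3 for Ctsd, -11.8 to 24.8 for Ctss, -11.5 to 30.7 for Cst3, -11.9 to 18.3 for Grn, -11.6 to 12.7 for Psap and -18.3 to 1.02 for Lamp1, and Lamp1 by 1.63 points for scores above 0.25. In every comparison of training the largest counts with 1 sample left out came without untrained sample 1, except in other cells, where 12 passed without trained sample 1. The cause of these changes was not tested.

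Scores without counts limit what can be said: the depth of each sample is unknown, a score below 0 does not show a missing transcript, and 5 samples of unknown origin in mice set the precision. No paired analysis of training was possible because replicate numbers follow accession order. The block above is the sample that both classes share.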
